A study of Mus musculus with 4 samples.

Results

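The 10 genes described here encode enzymes that build, sulfate or trim heparan sulfate: *Ext1*, *Ndst1*, *Ndst2*, *Hs2st1*, *Hs6st1*, *Hs6st2*, *Hs3st1*, *Hs3st3b1*, *Sulf1* and *Sulf2*. They were taken by symbol from the 24391 gene symbols of the count table, and all 10 had enough counts to be tested. The set was chosen by a measured value, the change of *Hs6st1* in counts between *Phf2* KO and WT in these same libraries, where the study had also labelled this gene, and the related enzymes were added by function. For that reason, the comparison of the genotypes is given for all 10 as a description. Which members passed a test is given beside the share of all genes that passed it, and supports nothing.

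Heparan sulfate is a sulfated polysaccharide that cells carry on core proteins at their surface and in the matrix around them. Exostosins polymerize the chain, N-deacetylase/N-sulfotransferases replace acetyl groups with sulfate, and 2-O-, 6-O- and 3-O-sulfotransferases add further sulfates inside the Golgi. The endosulfatases Sulf1 and Sulf2 later remove 6-O-sulfates outside the cell, and the resulting pattern sets which growth factors, such as FGFs, the chain can bind. Fibroblasts both make this polysaccharide and respond to the factors that it holds.

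Quiescent mouse embryonic fibroblasts (MEFs) were profiled by RNA-seq in 2 WT and 2 *Phf2* KO libraries. By the labels all 4 have the genotype Phf2 flox/flox, ERCre/+, that is, floxed alleles of *Phf2*, whose protein binds H3K4me3 nucleosomes at active promoters, and a CreERT2 recombinase that is expressed from the *Rosa26* locus and activated by 4-hydroxytamoxifen (4-OHT). Tamoxifen is named for the *Phf2* KO libraries alone. The protocol, worded alike for all libraries, gives cells from E13.5 embryos and 0.5 µM 4-OHT for 7 days in medium with 2% charcoal-treated serum. The vehicle or medium of the WT cells and the number of embryos are not stated, and loss of Phf2, Cre activity and 4-OHT cannot be told apart by these groups.

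The libraries held between 21094743 and 26094268 counts. *Phf2* itself (chromosome 13, 48897119 to 48966254, reverse strand) had 3244 and 3680 counts in the WT libraries against 1454 and 2158 in those of *Phf2* KO MEFs, and the counts cover the whole gene, floxed exons and others together. The fitted log2 ratio was -0.79 (standard error 0.14), with an adjusted p from edgeR of 0.999 with genotype alone and of 7.67e-19 with the replicate number as a block. *Xist* and *Ddx3y* counts put both libraries numbered 1 with female and both numbered 2 with male embryos, so log2 ratios are also given within each number. Fibroblast markers were abundant (12 of 12 tested, with *Col1a1* between 452469 and 716012 counts). Macrophage markers were present too: the 21 listed summed to 5194 and 1170 normalized CPM (counts divided by each library's total, corrected for composition by TMM) in WT replicates 1 and 2 and to 5725 and 1768 in *Phf2* KO. Of 10 endothelial markers, 4 had enough counts to be tested, with *Eng* highest on average (444 to 632 counts), and *Tie1* and *Cldn5* were at 0 in all libraries. Among the 4 was *Kdr*, the VEGF receptor gene, with 441 and 232 counts in WT libraries against 258 and 135 with *Phf2* KO. With the replicate number as a block it was called lower, as were 3 of the 12 fibroblast markers and 5.2% of all genes. In the same fit 9 of the 21 macrophage markers were called higher, beside 5.77% of all genes. The other 3 endothelial markers tested had fitted log2 fold changes above 0, and the median over the 4 was 0.09. Within replicate number 1, 1 of the 4 was higher with *Phf2* KO and 3 lower, and within number 2, 3 were higher and 1 lower. The 10 epithelial markers summed to between 3.61 and 4.95 normalized CPM.

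*Hs6st1*, which encodes heparan sulfate 6-O-sulfotransferase 1, spans 36125245 to 36163291 of mm9 chromosome 1, forward strand, in 2 exons. The 250 bases just before its annotated start are shown because it is the member whose level differed most between the genotypes. They lie at chr1:36124995-36125244 of mm9, on the forward strand, and come from RefSeq (GRCm38.p6), placed on mm9 by an exact match. Capitals mark CpG dinucleotides, the bases that are dense in promoters of the kind that carries H3K4me3.

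Hs6st1: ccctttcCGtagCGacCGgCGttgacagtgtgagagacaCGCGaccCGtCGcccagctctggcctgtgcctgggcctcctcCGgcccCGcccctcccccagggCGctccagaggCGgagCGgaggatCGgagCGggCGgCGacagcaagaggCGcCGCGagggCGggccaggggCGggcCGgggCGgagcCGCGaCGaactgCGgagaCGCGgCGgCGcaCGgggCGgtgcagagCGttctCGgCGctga

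This stretch held 37 CpG dinucleotides, read on the strand shown, and its GC content was 76.4%. Among 32841 promoter stretches of the same length, the median held 6, and 2.20% held at least 37. The 7 members with such an entry had 9 entries between them, which held from 7 to 37, the highest number being that of *Hs6st1*. No binding or chromatin data were analysed here, so these letters describe the gene and nothing of what acts on it.

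*Hs6st1* had 6872 and 8231 counts in the WT libraries against 8475 and 9939 in those of *Phf2* KO MEFs. Scaled, this was 301 ± 22.7 normalized CPM in WT and 411 ± 3.12 in *Phf2* KO (SD, n = 2 each), so that *Phf2* KO MEFs held 136.6% of the WT level. Both *Phf2* KO libraries lay above both WT libraries. The log2 fold change was 0.45 (standard error 0.097, from edgeR's fit of all 4 libraries). It was 0.52 within replicate number 1 and 0.38 within replicate number 2, with counting errors of 0.023 and 0.022. Over the fits that each lacked 1 library, it lay between 0.39 and 0.51. *Hs6st1* was the only member whose groups did not overlap, 1 of 10, where 33.5% of all 13668 genes tested had groups that did not overlap and 15.5% had *Phf2* KO above WT.

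The paralog *Hs6st2*, which encodes another 6-O-sulfotransferase, lies on chromosome X from 48740389 to 49035033 on the reverse strand and overlaps the annotated genes *AL672099.1* and *Gm14581* on the same strand. Its WT libraries held 1416 and 2122 counts, those of *Phf2* KO 1336 and 1671. In normalized CPM these were 58.7 and 81.8 against 64.5 and 69.5, so that the *Phf2* KO libraries lay between the WT libraries. The fitted log2 fold change, -0.07 with a standard error of 0.18, was made up of 0.13 within replicate number 1 and -0.23 within replicate number 2. Without WT replicate 1 it was -0.28, and without WT replicate 2 it was 0.17, so the sign of this value rests on which WT library is used. The 6-O-sulfotransferase gene *Hs6st3* was counted between 1 and 4 times, too few to be tested.

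**Figure D1:**
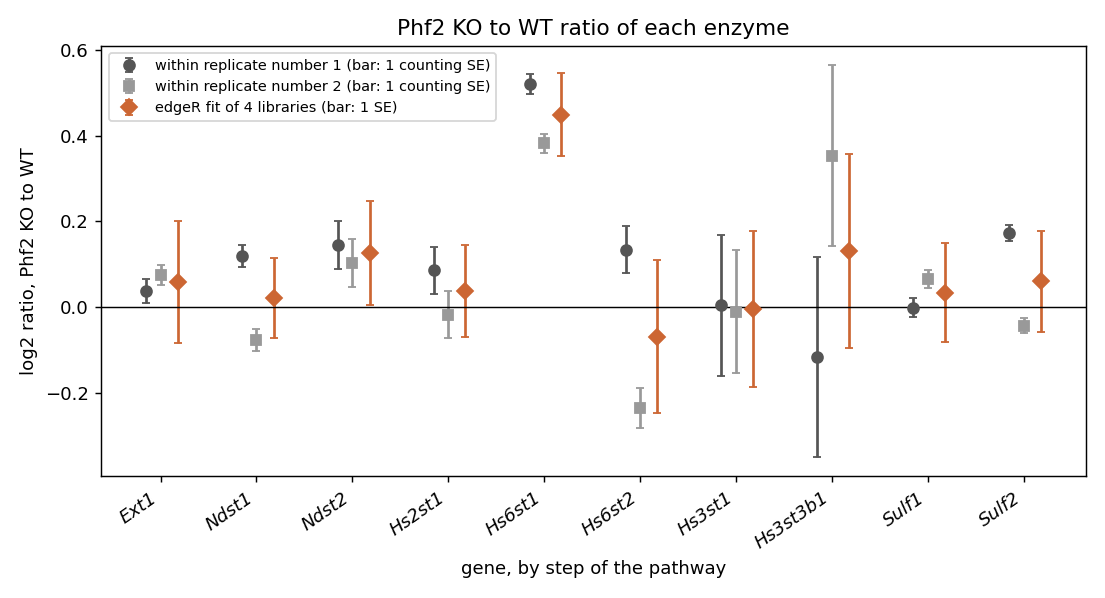
Log2 ratio of *Phf2* KO to WT for each of the 10 enzymes (y axis), in the order of the pathway (x axis). Circles and squares are the ratios within replicate numbers 1 and 2, with bars of 1 counting standard error, and diamonds are edgeR's fit of 4 libraries with its standard error. *Hs6st1* sits at 0.52, 0.38 and 0.45, while the diamonds of the other 9 lie between -0.07 and 0.13.

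For the enzymes that make and N-sulfate the chain, the genotypes overlapped. *Ext1*, which encodes a subunit of the heparan sulfate polymerase (chromosome 15, 52895593 to 53177714, reverse strand), had 5960 and 7528 counts in the WT libraries against 5258 and 7350 in those of *Phf2* KO MEFs. The fitted log2 ratio was 0.06 (standard error 0.14), and in both groups replicate 2 was the higher library. *Ndst1*, the more abundant N-deacetylase/N-sulfotransferase gene here (chromosome 18, 60845632 to 60908304, reverse strand), had 6318 and 7149 counts in the WT libraries against 5898 and 6283 in those of *Phf2* KO. Its log2 fold change was 0.02 (standard error 0.093), made of 0.12 within replicate number 1 and -0.08 within replicate number 2. *Ndst2* (chromosome 14, 21542952 to 21549766, reverse strand) had 1386 and 1322 counts in the WT libraries against 1318 and 1315 in those of *Phf2* KO. Its log2 fold change of 0.13 (standard error 0.12) was close to its standard error, with 0.15 and 0.10 within the replicate numbers.

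The 2-O- and 3-O-sulfotransferase genes also had overlapping groups. *Hs2st1*, which encodes the 2-O-sulfotransferase that acts on uronic acids (chromosome 3, 144094067 to 144233145, reverse strand), had 1474 and 1481 counts in the WT libraries against 1345 and 1356 in those of *Phf2* KO MEFs. After scaling for depth these were 59.1 ± 2.88 and 60.7 ± 6.01 normalized CPM (SD, n = 2 each), and the fitted log2 ratio was 0.04 (standard error 0.11). The 3-O-sulfotransferases make the rarest modification, the one that antithrombin binding requires. *Hs3st1* (chromosome 5, 40005174 to 40146714, reverse strand) had 167 and 211 counts in the WT libraries against 144 and 194 in those of *Phf2* KO, and the fitted log2 ratio was -0.004 (standard error 0.18). *Hs3st3b1* (chromosome 11, 63699294 to 63735792, reverse strand) had 87 and 87 counts in the WT libraries against 69 and 103 in those of *Phf2* KO, with a log2 fold change of 0.13 (standard error 0.23). At these counts the ratios of *Hs3st3b1* within the replicate numbers, -0.12 and 0.35, had counting errors of 0.23 and 0.21. *Hs3st3b1* has a close paralog in *Hs3st3a1*, counted between 9 and 17 times, and how reads that fit both were assigned is not stated.

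Of the endosulfatase genes, *Sulf2* had more counts than any other member in all 4 libraries. *Sulf2* (chromosome 2, 165898589 to 165981163, reverse strand, overlapping *Ncoa3* on the other strand) had 11321 and 14401 counts in the WT libraries against 10973 and 12950 in those of *Phf2* KO MEFs. The fitted log2 ratio was 0.06 (standard error 0.12), with 0.17 within replicate number 1 and -0.04 within replicate number 2. *Sulf1* (chromosome 1, 12708626 to 12850452, forward strand) had 8341 and 9852 counts in the WT libraries against 7167 and 9551 in those of *Phf2* KO, and the fitted log2 ratio was 0.03 (standard error 0.11). In normalized CPM, the range of *Phf2* KO (345.9 to 397.3) covered that of WT (346.1 to 379.7) for *Sulf1*, and the range of WT (469.7 to 555) covered that of *Phf2* KO (529.6 to 538.7) for *Sulf2*.

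Over the 10 members the median log2 fold change was 0.05, with 8 above and 2 below 0, beside a median of 0.01 over all genes tested. The median was -0.01 without WT replicate 1 and -0.01 without *Phf2* KO replicate 2. In the fit with genotype alone, edgeR's quasi-likelihood test called 0 of the 10 members at an adjusted p-value under 0.1 (1 was higher at an unadjusted p-value under 0.05), and 0.00732% of all genes. With the replicate number as a block, which takes up what the libraries of 1 number share, 1 member, *Hs6st1*, was called higher, and 11% of all genes were called, 5.77% as higher and 5.2% as lower in *Phf2* KO. DESeq2 also called *Hs6st1* higher, without the block (as 0.0625% of 15991 genes) and with it (as 2.42% of 7550). These are the genes that DESeq2 gave an adjusted p-value. With the block limma-voom called it higher too (as 5.3% of 13668 genes). The members were chosen with this contrast known, so nothing is read from these counts.

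Levels can be compared between genes once they are divided by exon length. On this scale (normalized CPM per kb of exon) *Hs6st1* stood at 76.7 and 85.3 in the WT libraries against 110.0 and 111.2 with *Phf2* KO. *Sulf2* ranged from 80.7 to 95.4 and *Sulf1* from 75.1 to 86.2 over the 4 libraries, so these 3 genes stood together at the top and their ranges overlapped. *Ndst1* followed with 39.6 to 43.1, *Ext1* with 30.6 to 37.9, *Ndst2* with 14.43 to 18.01, *Hs2st1* with 11.5 to 13.2 and *Hs6st2* with 7.53 to 10.5. The 3-O-sulfotransferase genes were lowest, *Hs3st1* at 3.11 to 3.65 and *Hs3st3b1* at 0.678 to 0.872. From *Sulf1* downwards the ranges of neighbours in this order did not overlap. The order rests on the exon lengths, taken over all transcripts of a gene. With the longest transcript alone, *Hs6st2* ranged from 13.502 to 18.8 and overlapped *Ndst2* (14.43 to 18.01) and *Hs2st1* (11.8 to 13.6), and *Sulf2* stood highest at 102.6 to 121.2.

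**Figure D2:**
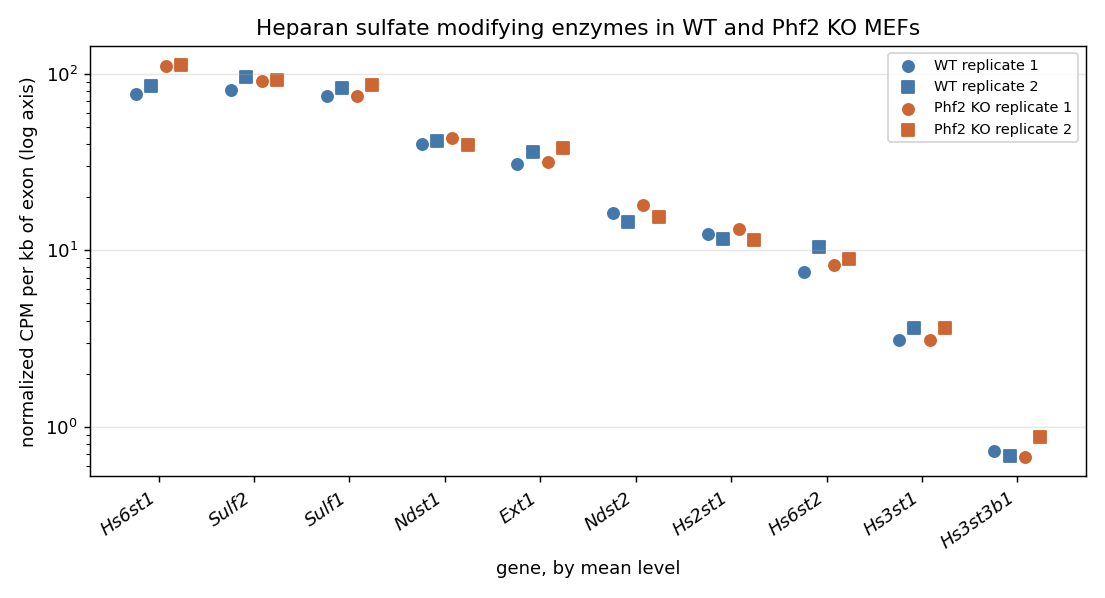
Level of each enzyme gene in each library as normalized CPM per kb of exon (y axis, log scale), with genes ordered by their mean (x axis). Blue is WT and orange *Phf2* KO, circles replicate 1 and squares replicate 2. *Hs6st1*, *Sulf2* and *Sulf1* lie between 75.1 and 111.2, and only for *Hs6st1* do both orange points lie above both blue ones.

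Within the 6-O-sulfotransferases, *Hs6st1* made up 90.0% ± 1.38 of the summed level in WT and 92.8% ± 0.317 in *Phf2* KO MEFs (SD, n = 2 each). These shares depend on the length used for *Hs6st2*, and they were 83.4% and 87.7% with the longest transcript of each gene. The summed 6-O-sulfotransferase level (normalized CPM per kb) was 84.3 and 95.8 in the WT libraries against 118.3 and 120.1 with *Phf2* KO, with both *Phf2* KO libraries above WT. The summed level of *Sulf1* and *Sulf2*, whose products remove the same sulfates, was 155.8 and 177.8 against 166.1 and 178.8, and here the groups overlapped. The ratio of the sums was 0.541 and 0.539 in WT libraries, and 0.712 and 0.672 with *Phf2* KO. It carries the difference of *Hs6st1* and adds no independent evidence to it. *Ndst1* made up 72.3% ± 2.42 of the summed level of the 4 *Ndst* genes in WT and 70.9% ± 0.894 in *Phf2* KO. Of the summed 3-O-sulfotransferase level, *Hs3st1* made up 51.92% ± 1.503 in WT and 51.7% ± 2.93 in *Phf2* KO, and *Hs3st5*, which is not among the 10, 34.2% ± 4.05 and 33.0% ± 3.30. These shares differed between the genotypes by less than the SD of at least 1 group.

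**Figure D3:**
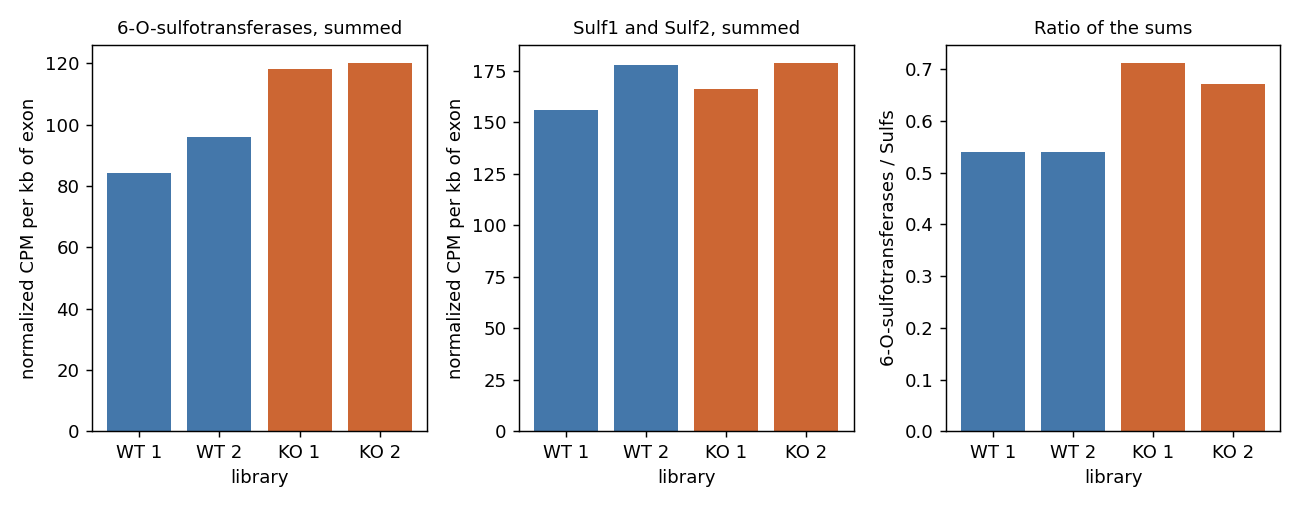
Summed level of the 6-O-sulfotransferase genes (left), of *Sulf1* and *Sulf2* (middle), both in normalized CPM per kb of exon, and the ratio of the sums (right) in each library, with WT in blue and *Phf2* KO in orange. The blue bars of the ratio stand at 0.541 and 0.539, the orange at 0.712 and 0.672.

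The members also differed between the replicate numbers. *Hs6st2* was lower in replicate 1 than in replicate 2 by 0.48 log2 units in WT and by 0.11 in *Phf2* KO. *Ext1* was lower in replicate 1 by 0.23 and 0.27, *Sulf1* by 0.13 and 0.20 and *Sulf2* by 0.24 and 0.02. *Hs6st1* was lower in replicate 1 by 0.15 in WT and by 0.02 in *Phf2* KO, so its difference between genotypes was larger than that between replicates in each group. *Ndst2* and *Hs2st1* went the other way in both groups, higher in replicate 1 by 0.17 and 0.22 and by 0.10 and 0.20. All 21 macrophage markers were higher in replicate 1 in both groups. The summed fibroblast markers came to 88717 and 91891 normalized CPM for the WT libraries against 79070 and 76315 for *Phf2* KO. Collagen genes and *Fn1* made up most of each sum, which is not to say most of the difference. Of the 12 markers 7 were lower with *Phf2* KO within both replicate numbers and 0 higher within both. Of the macrophage markers, 12 were higher with *Phf2* KO and 9 lower within replicate number 1, and 21 were higher within replicate number 2. Without *Lyz2*, the most abundant, they summed to 3869 and 855 normalized CPM in WT replicates 1 and 2 against 3999 and 1194 with *Phf2* KO. The part of these markers in the *Hs6st1* difference was not tested. In such bulk RNA, fewer cells of a type and less RNA per cell cannot be told apart.

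The genes around these enzymes were described from 6 lists of the pathway. Of the other 20 heparan sulfate chain enzymes, 15 had enough counts to be tested. With genotype alone, edgeR's quasi-likelihood test called 0 of the 70 genes tested from the 6 lists, and at an unadjusted p-value under 0.05 1 was higher (*Agrn*) and 1 lower (*Etv4*). DESeq2 and limma-voom also called 0 without the block. With the replicate block 5 were higher and 3 lower, which is 11.4% of 70 beside 11% of all genes. By list, this share was 23.1% for core proteins, 13.3% for chondroitin and dermatan sulfate enzymes, and 10% each for degradation and FGF-induced genes. It was 6.67% for the other chain enzymes and 0% for sulfate donor supply. The median log2 fold change over the 70 was 0.01, with 36 above and 34 below 0.

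Among the chain enzymes, *B3gat3* (chromosome 19, 8994864 to 9001724, forward strand), which encodes the transferase that completes the linker between core protein and chain, was called higher with the block. It had 947 and 1274 counts in the WT libraries against 1040 and 1284 in those of *Phf2* KO MEFs. The log2 ratio was 0.23, with a standard error of 0.089 with the block and of 0.14 without it. The adjusted p from edgeR was 0.0838 when blocked and 0.999 otherwise. The list's median log2 fold change was -0.01. *Hs3st2*, a 3-O-sulfotransferase gene, had 0 counts in all libraries, where 3 counts were worth from 0.116 to 0.145 normalized CPM (counting error only).

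None of the 7 genes of sulfate donor supply was called, with or without the block. *Papss2* (chromosome 19, 32694495 to 32741677, forward strand), which encodes an enzyme that makes the sulfate donor PAPS, had the largest difference among those with a mean of at least 50 counts. It had 433 and 425 counts in the WT libraries against 304 and 344 in those of *Phf2* KO MEFs, which edgeR fitted as a log2 ratio of -0.24 (standard error 0.12) with an adjusted p of 0.237 when blocked and of 0.999 otherwise. The median over the 7 was -0.06.

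Of 14 core proteins, 13 were tested, and with the block 2 were called higher and 1 lower (23.1%, beside 11% of all genes). *Agrn* (chromosome 4, 155539399 to 155571536, reverse strand), which encodes the basement membrane proteoglycan agrin, had 3125 and 3537 counts in the WT libraries against 3563 and 3857 in those of *Phf2* KO MEFs. In the blocked fit the log2 ratio was 0.32 (standard error 0.083), with an adjusted p from edgeR of 0.00337, and of 0.999 without the block. Its groups did not overlap. The glypican gene *Gpc2* (chromosome 5, 138706180 to 138721233, reverse strand), which overlaps *6330418K02Rik* and *Gal3st4* in the annotation, had 466 and 841 counts in the WT libraries against 615 and 1037 in those of *Phf2* KO. It was higher in *Phf2* KO within both replicate numbers, by 0.62 and 0.41, although the groups overlapped (edgeR, adjusted p of 1.59e-05 with the block and of 0.999 without it). *Tgfbr3* (chromosome 5, 107535589 to 107718648, reverse strand), which encodes betaglycan, a co-receptor for TGF-beta, had 3286 and 2980 counts in the WT libraries against 2497 and 2326 in those of *Phf2* KO. Its log2 ratio was -0.21, with a standard error of 0.083 with the block and of 0.15 without it. The adjusted p from edgeR was 0.094 with the block and 0.999 without it. The median over the 13 was 0.11, with 10 above and 3 below 0.

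Of the degradation genes, 10 of 11 were tested and *Hpse* (chromosome 5, 101108503 to 101148735, reverse strand), which encodes the endoglycosidase heparanase, was called with the block. It had 848 and 236 counts in the WT libraries against 764 and 347 in those of *Phf2* KO MEFs. Its log2 ratio was 0.07 within replicate number 1 and 0.67 within replicate number 2 (edgeR, adjusted p of 0.0484 with the block and of 0.999 without it). Its counts were higher in replicate 1, as were those of all 21 macrophage markers, and the part of these markers in the *Hpse* difference was not tested.

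The enzymes of chondroitin and dermatan sulfate, which draw on the same linker and sulfate donor, had a median log2 fold change of -0.11 over 15 genes tested, 10 of them below 0. The groups did not overlap with *Phf2* KO lower for 8 of the 15 (53.3%), beside 18% of all genes. This was not particular to these enzymes, since the share was 58.3% for the fibroblast markers and 42.9% for sulfate donor supply. In the other pathway lists it lay between 0% (core proteins) and 20% (degradation and FGF-induced genes). With the block 1 was called lower and 1 higher. *Chst11* (chromosome 10, 82448243 to 82658645, forward strand), which encodes a chondroitin 4-O-sulfotransferase and overlaps *1700025N21Rik* and a *U6* gene, had 736 and 588 counts in the WT libraries against 450 and 389 in those of *Phf2* KO MEFs. The fitted log2 ratio was -0.49 both with the block (standard error 0.11) and without it (standard error 0.22). For *Chst11* edgeR gave an adjusted p of 0.000231 with the block and of 0.999 without it. The ratio was -0.49 within each replicate number. *Chpf2* (chromosome 5, 24092559 to 24100213, forward strand), which encodes a chondroitin polymerizing factor and overlaps *Smarcd3* and *Mir671*, had 3350 and 4920 counts in the WT libraries against 3874 and 4922 in those of *Phf2* KO (log2 ratio 0.27 with the block, standard error 0.084), with an adjusted p from edgeR of 0.0238 with the block and of 0.999 without it.

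Genes that FGF signalling induces, some of which feed back on it, were listed because FGFs need heparan sulfate to signal. All 10 were tested, and the median log2 fold change was -0.02, with 5 above and 5 below 0. With the block 1 was called, *Etv4* (chromosome 11, 101631056 to 101646685, reverse strand), which encodes an ETS transcription factor. It had 61 and 77 counts in the WT libraries against 36 and 41 in those of *Phf2* KO MEFs, and the log2 ratio in the blocked fit was -0.68 (standard error 0.25). For it edgeR gave an adjusted p of 0.0738 with the block and of 0.999 without it.

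**Figure D4:**
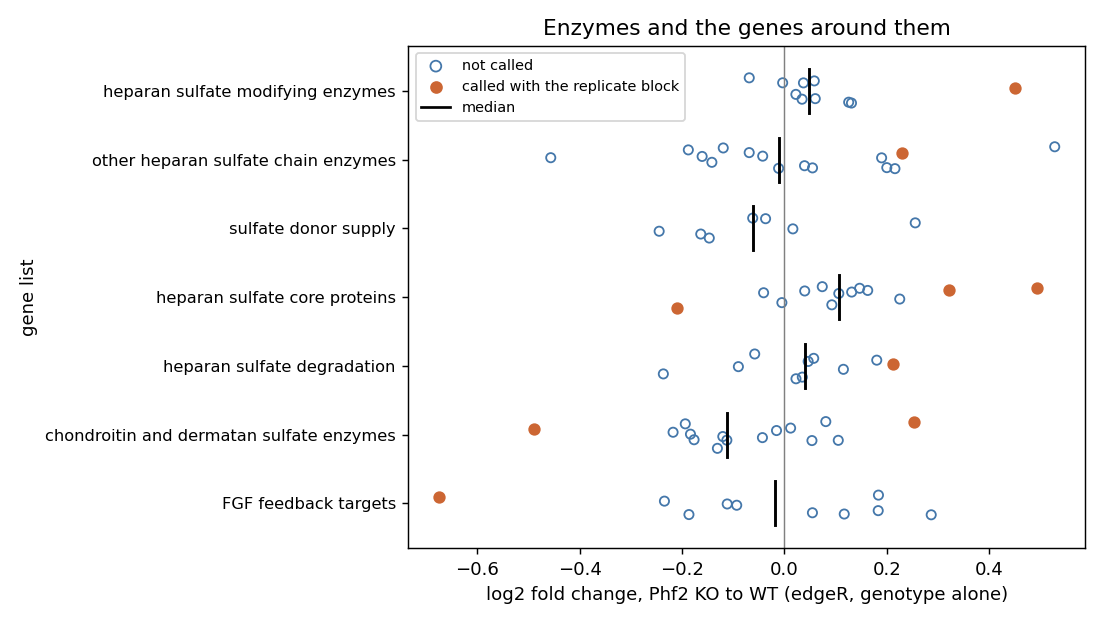
Log2 fold change of *Phf2* KO against WT (x axis, edgeR with genotype alone) for each gene tested in the 10 enzymes and the 6 lists around them (y axis). Filled orange points were called with the replicate block, open points were not, and the black line is the list's median. The medians lie between -0.11 and 0.11, and *Hs6st1* is the filled point at 0.45 in the top row.

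The genes whose pattern over the 4 libraries was most like that of *Hs6st1* were sought among the 13667 other genes tested, by the root mean square distance between centred log2 levels. The closest 5 were *Rnls* (distance 0.022 log2 units), *Ptger3* (0.024), *Fancb* (0.025), *Tmsb4x* (0.027) and *Tln2* (0.035). *Rnls* was counted between 61 and 89 times, *Ptger3* between 32 and 47 times and *Fancb* between 11 and 17 times, so the closeness of these 3 lies within counting error. By contrast, *Tmsb4x*, which encodes the actin-binding thymosin beta 4, had between 13512 and 19432 counts, and *Tln2*, which encodes a talin, between 4763 and 6875. In all, 233 genes lay within 0.1 log2 units, and of the other members 0 did, the closest at 0.196.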

How the data were processed

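RNA-seq libraries of MEFs, 2 WT and 2 *Phf2* KO, were compared. Before deposit the authors used Trim Galore on the reads, took out ribosomal RNA with bowtie2, aligned the rest to mm9 with STAR (reverse stranded) and deposited the raw counts that featureCounts gave per gene, without normalization. Versions and the annotation release are not given in the sources used here. A deposited table of the authors' own DESeq2 comparison (fold changes, standard errors and p-values) was not used.

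Genotypes were tested by edgeR 4.0.16 under R 4.3.3 (filterByExpr, TMM, glmQLFit, glmQLFTest). The 13668 p-values were adjusted by Benjamini-Hochberg, and genes under 0.1 were called. The standard error is the log2 fold change over the root of the F statistic. No label states that the replicates are separate animals, but the sex-linked counts put numbers 1 and 2 with embryos of different sex. Whether WT and *Phf2* KO libraries of 1 number share an embryo is not stated. Each p-value sets the genotype difference against a spread between these libraries, which the fits share over all genes. Without the block, that spread includes the difference between replicate numbers 1 and 2, and with the block only what is left after it. The common dispersion, edgeR's measure of this spread, was 0.045 without the block and 0.0036 with it. Neither is a spread between embryos of the same sex. With the block and 1 residual degree of freedom, standard errors rest largely on that shared spread. For *Hpse* the blocked standard error was 0.11, with ratios within replicate numbers of 0.07 and 0.67. Positions and exon lengths came from GENCODE vM1 (NCBIM37, that is, mm9). The tests were tried on simulated data. DESeq2 1.42.0, limma 3.58.1 (voom), other normalizations, filters and thresholds, the replicate block, and leaving out each library were alternatives. Counting errors cover sampling of reads only.

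The difference between replicates 1 and 2 was correlated across genes between WT and *Phf2* KO (Pearson's r = 0.774), and the sex-linked genes matched by number, which rests on the counts and not on the labels. The blocked fit, with 1 residual degree of freedom, is therefore given beside the fit without a block where it changes a call. The members and lists were chosen with earlier results of these data known. Genes named are the 10 members, *Phf2*, genes of the pathway lists (not the marker lists) called in either fit or, in a list with none, the gene with the largest change at a mean of at least 50 counts, the 5 genes most like *Hs6st1*, and the most abundant or absent markers. Other genes (*Hs6st3*, *Hs3st2*, *Hs3st3a1*, *Hs3st5*, *Kdr*, *Fn1*, *Sgsh*, *Chpf*, *Gusb*, *Dkk2* and the sex-linked genes) were named after their values were seen. Of 141 listed symbols, 1 was found under an older symbol.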

Additional observations from a re-analysis of the deposited data

Results flagged for a closer look

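For 5 of the members and pathway genes the log2 ratio of *Phf2* KO to WT had opposite signs in the libraries numbered 1 (female) and those numbered 2 (male), each beyond 2 counting standard errors. With 1 library per genotype and number, this difference was not tested. Of the members, *Hs6st2* was at 0.13 and -0.23, *Ndst1* at 0.12 and -0.076, and *Sulf2* at 0.17 and -0.043. Of the pathway genes, *Sgsh*, which encodes a lysosomal sulfatase of heparan sulfate, was at 0.13 and -0.10, and *Chpf*, which encodes a chondroitin polymerizing factor, at 0.16 and -0.11. The condition was met by 3 of the 10 members (30%) and 2 of the 70 pathway genes (2.86%). Among all 13656 genes with a count in every library, 2.86% met it. So did 6 of the 21 macrophage markers and 3 of the 12 fibroblast markers. Genes with many counts have small counting errors and meet it more readily, so nothing is read from the share of the members.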

How the results depend on the processing

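With genotype alone, edgeR called 0 genes higher and 1 lower (*Dkk2*, which encodes a Wnt antagonist), with 211 and 365 at an unadjusted p-value under 0.05. DESeq2 called 10 and 54, limma-voom 0 and 0 (223 and 352 unadjusted), and edgeR 0 and 0 at thresholds of 0.05 and 0.01. With the replicate block edgeR called 789 and 711, DESeq2 183 and 119, and limma-voom 725 and 646. Leaving out WT replicate 1, WT replicate 2, *Phf2* KO replicate 1 or *Phf2* KO replicate 2 gave 0 and 0 each (unadjusted, from 56 to 377 higher and from 157 to 378 lower), and with the block these fits could not be made, since no residual degree of freedom was left. Of the listed pathway genes, 5 and 3 were called with the block in edgeR, 2 and 0 in DESeq2 (47 of them with an adjusted p-value) and 3 and 1 in limma-voom, and 0 with any library left out. Of the members, 1, *Hs6st1*, was called higher by DESeq2 and, with the block, by edgeR, DESeq2 and limma-voom. In that order, these fits called 0.0625%, 5.77%, 2.42% and 5.3% of all genes with an adjusted p-value higher. The cause of the differences between the fits was not tested.

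The log2 fold change of *Hs6st1* was above 0 in 16 of 16 settings, from 0.38 to 0.52, and between 0.39 and 0.51 with each library left out. All settings draw on the same 4 libraries in which *Hs6st1* was chosen, so this tally describes the value and supports nothing. The median over the members lay between -0.01 and 0.09 with each library left out. The *Hs6st1* share of the 6-O-sulfotransferases was 83.4% in WT and 87.7% in *Phf2* KO with the longest transcript, and 81.2% and 86.0% without length scaling. Depth limits *Hs3st3b1* and *Hs3st1*, whose ratios within replicate numbers had counting errors from 0.14 to 0.23 log2 units.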

Other observations

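Among the genes that degrade heparan sulfate, the difference between replicate numbers was larger than that between genotypes for a pair of enzymes chosen after their values were seen. *Hpse* was counted 848 and 764 times in the libraries numbered 1 and 236 and 347 times in those numbered 2 (WT and *Phf2* KO in each). *Gusb*, which encodes the lysosomal beta-glucuronidase, was counted 4659 and 4001 times against 2471 and 2521. *Sgsh*, another lysosomal enzyme of the list, was counted 2012 and 1889 times against 2054 and 1780. The 21 macrophage markers were also higher in the libraries numbered 1, and their part in these differences was not tested.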
